A study of Mus musculus with 4 samples.

Results

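The phase II conjugation enzymes were taken as every row of the count table whose gene symbol followed the naming pattern of the glutathione transferases (Gst and Mgst), the UDP-glucuronosyltransferases (Ugt1a, Ugt2a and Ugt2b) or the cytosolic sulfotransferases (Sult). This gave 65 of the 52459 genes listed, of which 25 were glutathione transferases, 19 glucuronosyltransferases and 21 sulfotransferases. The naming pattern used no measured value. The RNA came from intestinal stem cells (ISCs) of wild-type C57/Bl6 female mice, without any transgene, reporter or treatment at either age. Young ISCs (ISC_2mth) were from mice of 2 months and old ISCs (ISC_22mth) from mice of 22 months, with 2 pools per age and the sorted cells of 5 animals in each pool. The cells were sorted from small intestinal crypts by 6 surface markers (SM6 strategy), and their RNA was copied along whole transcripts (SPIA amplification, without molecular barcodes) and sequenced as single-end reads. The question was which genes differ in expression between the stem cells of young and of old animals.

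Conjugation is the second step by which cells dispose of reactive or poorly soluble compounds. A transferase joins the compound to glutathione, to glucuronic acid or to a sulfate group, and the water-soluble product then leaves the cell through efflux pumps. The small intestine, together with the liver, is a main site of this first-pass metabolism, and the enzymes are best known from differentiated enterocytes of the villus. The 3 families draw on different donors, which are glutathione itself, UDP-glucuronate and the activated sulfate PAPS.

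The libraries held between 11662654 and 15975698 counts. TMM normalization, which sets the libraries to a common scale from the bulk of the genes, used factors of 1.245 and 1.129 in young ISCs and of 0.8282 and 0.8591 in old ISCs. Levels below are given as CPM, a share of the library total on that scale. Markers of stem cells, 12 genes including Lgr5, Ascl2 and Olfm4, were all expressed above the filter, with summed levels of 3140 and 2957 CPM in the young and 2979 and 3192 CPM in the old pools, and 0 of the 12 were called by edgeR's quasi-likelihood test (1 lower by limma voom and by DESeq2, and 3 higher and 4 lower at an unadjusted p under 0.05). Of 10 stromal and endothelial markers, 5 (Cdh5, Kdr, Col1a2, Col3a1 and Pdgfra) had no count in any pool and the sum was at most 0.983 CPM. Leukocyte markers summed to between 22.5 and 28.2 CPM, of which Kit made up between 20.1 and 23.9 CPM and Cd68 between 1.8 and 4.35 CPM. No other marker named here had more than 9 counts in a pool: Lyz2 had 3 and 4 counts in the young and 9 and 3 in the old pools, Cd8a had 1 and 0 in the young and 4 and 3 in the old, and the T cell markers Cd3g and Cd4 and the macrophage marker Adgre1 had none.

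After TMM normalization, 1 to 2 conjugation enzymes of each family were called higher in old ISCs. Of the 65 members, 37 were tested, having over 5 reads at over 1 CPM (before TMM scaling) in some pool, and 4 of these were higher and 0 lower at a false discovery rate (FDR) under 0.05 by edgeR's quasi-likelihood test. They were the glutathione transferases Gsta4 and Gstm3, the glucuronosyltransferase Ugt2a3 and the sulfotransferase Sult1b1. This was 10.8% of the members tested, beside 1.63% of all 13692 genes tested that were higher, 0.628% that were lower and 2.26% called in either direction. At an unadjusted p under 0.05, 13 members were higher and 0 lower, beside 9.26% and 7.65% of all genes. Limma voom and DESeq2 also called 0 members lower.

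The other 33 tested members did not pass, and the values of all 37 are given as a description, with no test of the set. The log2 fold change (old minus young) was above 0 in 30 of the 37 members, beside 49.5% of all genes, with a median of 0.37 beside -0.0049 for all genes. Both old pools exceeded both young pools in 20 members (54.1%, against 24% of all genes tested) and were below them in 2 (Gstp3 and Sult1a1, against 23.6% of all genes). In the other 15 members the ages overlapped. Scaling by total counts alone lowered the median of all genes to -0.50 and that of the members to -0.12, which was 0.38 above it, and 29 of the 37 members stayed above the median of all genes. On that scale 1 member was called higher (Gsta4) and 2 lower (Sult1a1 and Gstp1), beside 0.701% of all genes called higher and 33.3% called lower. As RNA was measured in bulk, a change in the share of cells that express a gene cannot be told apart from a change in RNA per cell.

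**Figure D1:**
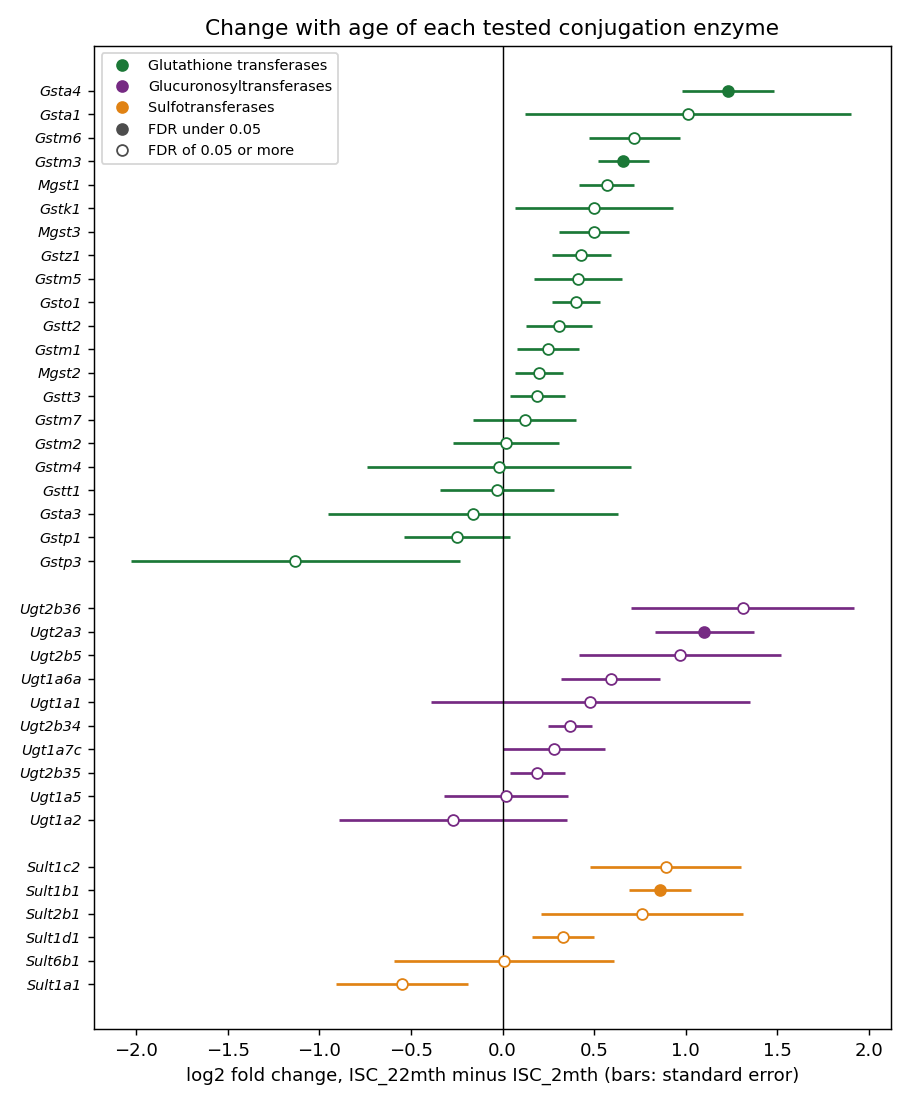
Log2 fold change (old minus young ISCs, TMM normalization) of the 37 tested conjugation enzymes by family, with standard errors as bars and filled points at FDR under 0.05. The 4 filled points (Gsta4, Gstm3, Ugt2a3 and Sult1b1) lie right of 0, as do 30 of the 37 members, and the range runs from -1.13 (Gstp3) to 1.31 (Ugt2b36); with total counts the median of the members is -0.12.

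After TMM normalization, the enterocyte markers and the enzyme families both had higher sums in both old pools. The 15 enterocyte markers summed to 610 and 739 CPM in young ISCs and to 1211 and 1070 CPM in old ISCs, and all 15 had counts. Of these markers 4 were higher (Fabp1, a fatty acid binding protein, with a log2 change of 2.35, the disaccharidase Sis with 1.38, Rbp2 with 0.98 and Fabp2 with 0.93) and 0 lower, while limma voom called 6 higher and DESeq2 called 2. At an unadjusted p under 0.05, 10 of the 15 were higher and 0 lower. The sums of the enzymes followed the same order of ages on the TMM scale. The glutathione transferases summed to 288 and 296 CPM in young ISCs and to 373 and 399 CPM in old ISCs. The glucuronosyltransferases summed to 156 and 157 CPM and to 203 CPM in each old pool, and the sulfotransferases to 46.6 and 56.7 CPM and to 81.4 and 68.5 CPM. On the TMM scale, ISC_22mth pool 1 had the highest sum of the enterocyte list and of the sulfotransferases. For the glutathione transferases it was ISC_22mth pool 2. As shares of total counts, the glucuronosyltransferases had lower sums in both old pools, while the glutathione transferases and the sulfotransferases overlapped between ages. The enterocyte sums stayed higher in both old pools on that scale. The part of enterocyte RNA in the levels of the enzymes was not tested.

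Of the other epithelial cell types, the sums of tuft cell markers separated the ages and those of Paneth, goblet and enteroendocrine markers overlapped. Paneth cell markers reached 2090 CPM in ISC_22mth pool 1 and lay between 734 and 958 CPM in the other pools, with 2 of 10 called higher (Defa17 with 1.11 and Defa24 with 0.87; limma voom called 2 and DESeq2 called 0). At an unadjusted p under 0.05, 5 of the Paneth markers were higher and 1 lower, and their median log2 fold change was 0.56, beside 0.49 for the enterocyte markers. The part of Paneth cell RNA in the levels of the enzymes was not tested. Goblet cell markers lay between 1955 and 2675 CPM with 0 of 9 called (1 higher at that p), and enteroendocrine markers between 44.2 and 156 CPM with 0 of 9 called (2 higher at that p). Tuft cell markers summed to 4.21 and 5.1 CPM in the young and 9.08 and 5.65 CPM in the old pools, with Il25 at 0 in every pool and 1 of 4 tested called (Dclk1, 3.09; DESeq2 also called 1 and limma voom called 0). The part of tuft cell RNA in the levels of the enzymes was not tested.

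**Figure D2:**
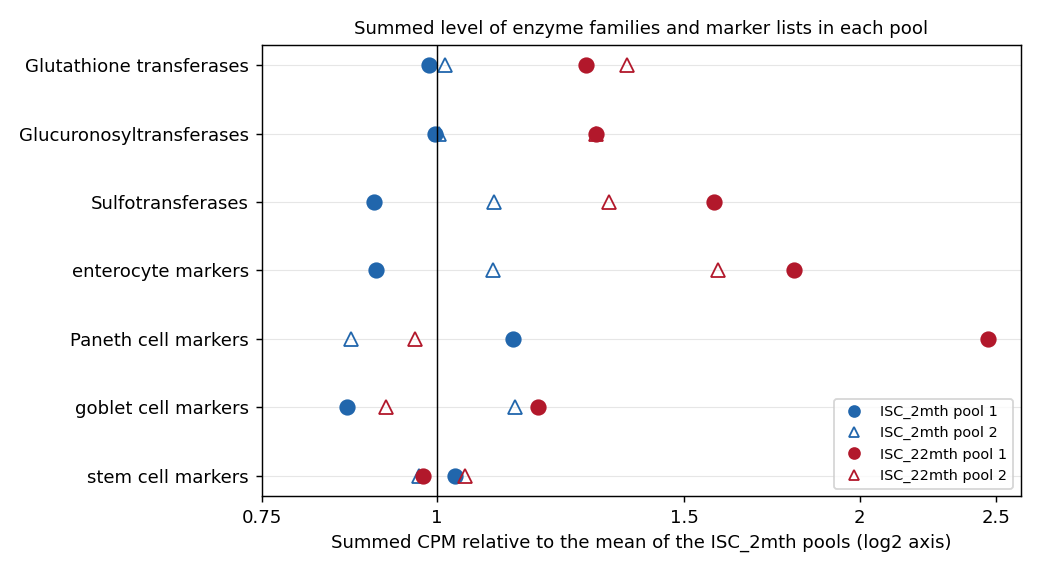
Summed TMM-normalized CPM of the 3 enzyme families and of 4 marker lists in each pool, divided by the mean of the ISC_2mth pools (log2 axis). The old pools (red) lie above the young pools (blue) in the 3 enzyme families and in the enterocyte list, which goes from 610 and 739 to 1211 and 1070 CPM, while the stem cell list overlaps; with total counts the median log2 fold change is -0.20 for glutathione transferases and -0.08 for glucuronosyltransferases.

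Among the glutathione transferases, 2 of 21 tested members were higher (9.52%) and 0 lower, beside 1.63% and 0.628% of all genes. The median log2 fold change was 0.31 after TMM normalization and -0.20 with total counts, 0.30 above the median of all genes on that scale. Both old pools were above both young pools in 12 of the 21 members (57.1%, beside 24% of all genes), below them in 1, and the ages overlapped in 8.

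Gsta4 encodes the alpha-class enzyme that conjugates 4-hydroxynonenal, an aldehyde released when membrane lipids are oxidized. It lies on chromosome 9 at chr9:78182774-78209349 (GRCm38, plus strand), and none of its 50-nt stretches occur in transcripts of other genes. Its counts were 55 and 97 in the young and 155 and 150 in the old pools, or 3.79, 6.43, 11.7 and 12.3 CPM. The old pools were close to each other and above both young pools, of which pool 1 was the lower. Gsta4 rose from 5.11 ± 1.86 to 12 ± 0.393 CPM (mean ± SD over 2 pools at each age), which is 1.23 on the log2 scale (standard error, SE, 0.25, FDR = 0.014). It was called higher in 12 of 12 other fits, with total counts among them (0.75, FDR = 0.024). Without ISC_2mth pool 1 the log2 fold change was 0.90 and no longer passed the threshold (FDR = 0.15).

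The other alpha-class genes had few counts. Gsta1 had 5 and 8 counts in the young and 17 and 6 in the old pools, passed the filter in 1 pool, and shares 90.5% of its 50-nt stretches with other genes. Gsta2 had 0, 0, 3 and 1 counts in the order of the pools, did not pass, and shares 49.8% of such stretches. As reads that fit several genes may have been lost, the levels of Gsta1 and Gsta2 are uncertain. Gsta3, on chromosome 1, had 7, 19, 13 and 7 counts, so that the ages overlapped. Among the alpha-class enzymes, Gsta4 was the only one with at least 55 counts in every pool.

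The mu class is a cluster of 7 genes at chr3:107895821-108044894, all of which were tested. Gstm3 was called higher and both old pools exceeded both young pools in 5 of the 7 (median log2 fold change 0.25, from -0.02 to 0.72), beside 1.63% of all genes called higher and 24% with the old pools above. The enzymes of this class conjugate a wide range of electrophiles, and their genes resemble each other to different degrees. The share of 50-nt stretches that occur in other genes ran from 0 in Gstm4 to 28.8% in Gstm3. The first 60 coding bases of 6 members are shown to compare the paralogs, 5′ to 3′, from the longest coding transcripts of GENCODE vM21 (GRCm38), with capitals where a base differs from Gstm3 at the same position. Gstm5 was left out, as its coding sequence starts with additional bases and its positions do not line up.
Gstm3: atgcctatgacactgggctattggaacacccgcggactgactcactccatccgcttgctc
Gstm1: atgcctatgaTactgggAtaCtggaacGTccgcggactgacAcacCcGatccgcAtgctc
Gstm2: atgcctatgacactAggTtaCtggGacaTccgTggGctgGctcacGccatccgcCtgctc
Gstm4: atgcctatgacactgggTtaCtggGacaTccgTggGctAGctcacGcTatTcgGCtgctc
Gstm6: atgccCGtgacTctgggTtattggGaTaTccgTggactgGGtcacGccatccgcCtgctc
Gstm7: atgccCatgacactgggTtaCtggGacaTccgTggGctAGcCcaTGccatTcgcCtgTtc
In this window Gstm1 differed from Gstm3 at 9 positions, Gstm2 at 10, Gstm6 at 12, Gstm4 at 13 and Gstm7 at 15. Over the whole coding sequence of 657 bases, Gstm2, Gstm7 and Gstm4 were identical to Gstm3 at 84.8%, 82% and 79.1% of positions.

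Gstm3 lies at chr3:107963696-107969283 on the minus strand. It had 423 and 462 counts in the young and 622 and 580 in the old pools, or 29.2, 30.6, 47.1 and 47.5 CPM. The pools of each age were close to each other and the ages were well apart. Gstm3 rose from 29.9 ± 1.01 to 47.3 ± 0.306 CPM (mean ± SD, n = 2), a log2 change of 0.66 (SE 0.14, FDR = 0.014). Of its 50-nt stretches, 28.8% also occur in transcripts of Gm8834, Gstm2-ps1, Gstm1 or Gstm6, and its count is uncertain to that extent. It was called in 11 of 12 other fits, the exception being total counts (0.17, FDR = 0.4), and was not called without ISC_2mth pool 1 (0.63, FDR = 0.1).

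The rest of the cluster did not pass the threshold. Gstm6 had 5.73 and 4.51 CPM in the young and 8.25 and 8.6 CPM in the old pools, without overlap (log2 fold change 0.72, SE 0.25, FDR = 0.14). Gstm1 went from 14.8 and 16.8 to 18.5 and 19 CPM (0.25, FDR = 0.49) and Gstm5 from 5.66 and 7.09 to 7.72 and 9.25 CPM (0.41, FDR = 0.41). Gstm7, Gstm2 and Gstm4 lay within 0.12 of 0 on the log2 scale. Whether Gstm3 differed from the rest of its cluster was not tested.

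The microsomal enzymes Mgst1, Mgst2 and Mgst3 are membrane proteins of a separate evolutionary origin that act as transferases and peroxidases on lipid substrates. All 3 had both old pools above both young pools, as had 24% of all genes, and 0 were called (2 had an unadjusted p under 0.05). Mgst1, found in the endoplasmic reticulum and the outer mitochondrial membrane, had 458 and 577 counts in the young and 590 and 721 in the old pools, or 31.6, 38.2, 44.6 and 59 CPM. It missed the threshold by a small margin (log2 fold change 0.57, SE 0.15, FDR = 0.06). It was called in 4 of 12 other fits, and also without ISC_2mth pool 2 (0.71, FDR = 0.025) and without ISC_22mth pool 1 (0.76, FDR = 0.00014), while it was 0.44 (FDR = 0.4) without ISC_2mth pool 1 and 0.35 (FDR = 0.2) without ISC_22mth pool 2. With total counts it was 0.09 (FDR = 0.69), and with offsets for GC content and exonic length 0.41 (FDR = 0.22). Mgst3 had 14.2 and 13.8 CPM in young and 23.5 and 16 CPM in old ISCs (0.50, FDR = 0.19), with ISC_22mth pool 1 far above the others, and was called without ISC_22mth pool 2 (0.75, FDR = 0.01). Mgst2, which can join leukotriene A4 to glutathione, had 41.5 and 39.8 CPM in young and 48.1 and 45.5 CPM in old ISCs (0.20, SE 0.13, FDR = 0.46), and with total counts its sign was reversed (-0.29).

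The most abundant glutathione transferase by CPM was Gsto1, the omega-class enzyme that also reduces dehydroascorbate. It had 45.5 and 44 CPM in the young and 57.3 and 61 CPM in the old pools, without overlap and with little spread within an age. Its log2 change between ages was 0.40 (SE 0.13, FDR = 0.11), and -0.09 with total counts. Gstz1, the zeta-class enzyme of tyrosine breakdown, had 28.8 and 25.6 CPM in young and 31.1 and 42.4 CPM in old ISCs (0.43, FDR = 0.17), and was called without ISC_22mth pool 1 (0.64, FDR = 0.006). The theta-class genes Gstt1, Gstt2 and Gstt3 lay between -0.03 and 0.31 and were not called.

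In the pi class 0 members passed the test. Gstp1 had 5.73 and 9.14 CPM in the young and 4.62 and 7.94 CPM in the old pools, so that the ages overlapped (log2 fold change -0.25, FDR = 0.71). Gstp3 had 8 and 18 counts in the young and 4 and 6 in the old pools and passed the filter in 1 young pool only (-1.13, SE 0.90, FDR = 0.56). Gstp2, removed by the filter, had 7 and 5 counts in young ISCs and 11 in each old pool, and 54.3% of its 50-nt stretches occur in other genes. With total counts Gstp1 was called lower (-0.72, FDR = 0.044), and 33.7% of its 50-nt stretches occur in other genes.

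The glutathione transferases were spread over many members. Gsto1 took 15.8, 14.9, 15.4 and 15.3% of the family CPM in the order of the pools, Mgst2 between 11.4 and 14.4%, Mgst1 between 11 and 14.8% and Gstm3 between 10.1 and 12.6%. Only the share of Gstm3 among these 4 was higher in both old pools (12.6 and 11.9%) than in both young pools (10.1 and 10.3%). The share of Gsta4 went from 1.32 and 2.17% to 3.14 and 3.08%. Such shares within a library are not affected by the scaling between libraries.

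**Figure D3:**
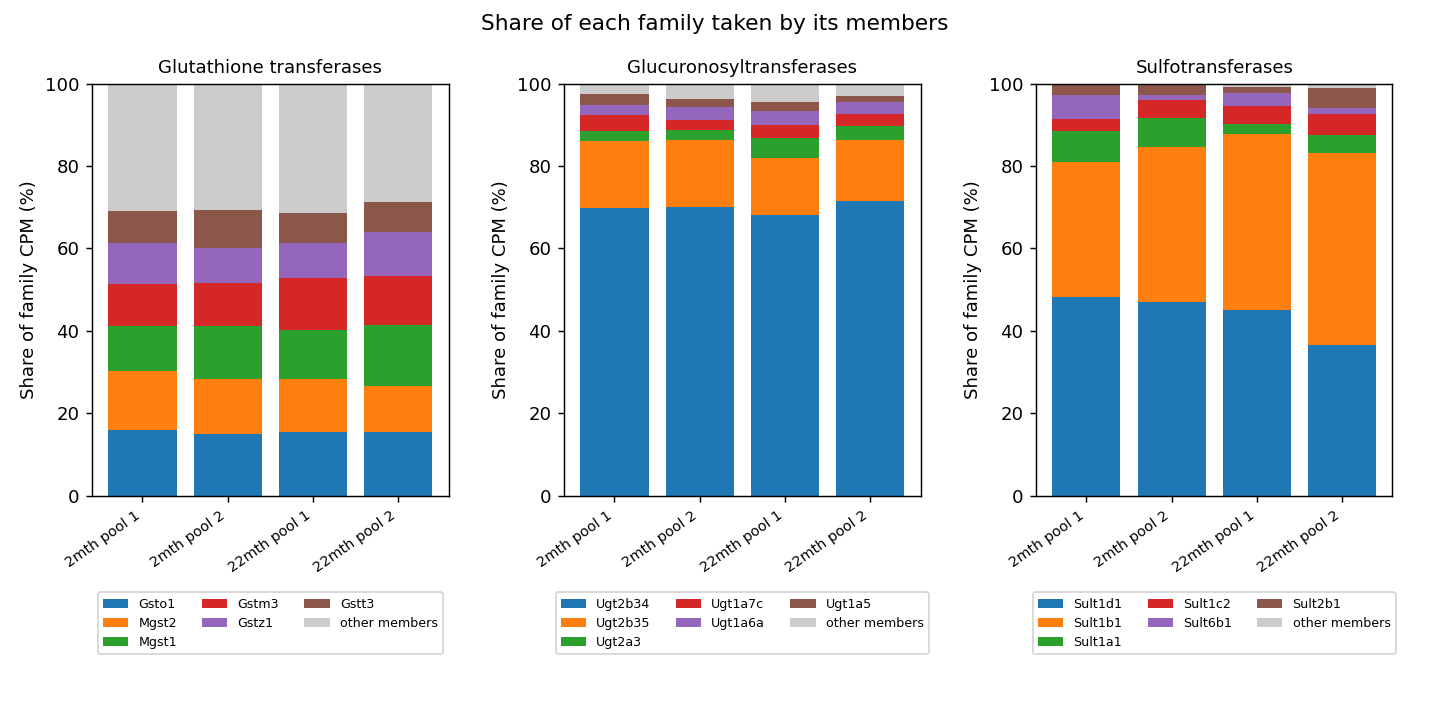
Share (%) of the summed CPM of each family taken by its 6 most abundant members and by all others, in each pool. Ugt2b34 takes between 68.2 and 71.6% of the glucuronosyltransferases in every pool, whereas Sult1d1 and Sult1b1 together hold most of the sulfotransferases and no glutathione transferase exceeds 15.8%.

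The glucuronosyltransferases had 10 of 19 members tested, with 1 higher (10%) and 0 lower, beside 1.63% and 0.628% of all genes. With 10 members, 1 call is not a result about the family. Their median log2 fold change was 0.43 after TMM normalization and -0.08 with total counts, 0.42 above all genes on that scale. The UGT1A and UGT2 subfamilies had medians of 0.28 and 0.97, and both old pools were above both young pools in 1 of 5 and in 5 of 5 tested members, respectively, beside 24% of all genes. This difference between the subfamilies was not tested.

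The UGT2 enzymes glucuronidate steroids, bile acids and many drugs. Ugt2a3, whose human counterpart acts on bile acids, lies at chr5:87324972-87337195 on the minus strand. It had 56 and 59 counts in the young and 133 and 81 in the old pools, or 3.86, 3.91, 10.1 and 6.63 CPM. The young pools were almost equal and the old pools differed, with ISC_22mth pool 1 the higher. Ugt2a3 rose from 3.89 ± 0.0325 to 8.35 ± 2.43 CPM (mean ± SD, n = 2), a log2 change of 1.10 (SE 0.27, FDR = 0.037).

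The call of Ugt2a3 was the least stable of the 4. It held in 7 of 12 other fits and was lost with DESeq2 (FDR = 0.13), with edgeR's filterByExpr (FDR = 0.059), with at least 10 counts in every library (FDR = 0.06), with offsets for GC content and exonic length (0.89, FDR = 0.12) and with total counts (0.61, FDR = 0.092). It was also lost without ISC_2mth pool 1 (1.10, FDR = 0.14), without ISC_2mth pool 2 (1.11, FDR = 0.09) and without ISC_22mth pool 1 (0.77, FDR = 0.19). The log2 fold change was above 0 in each of these fits.

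Ugt2b34 had the highest CPM of the 65 genes. It had 1576 and 1660 counts in the young and 1828 and 1770 in the old pools, or 109, 110, 138 and 145 CPM, without overlap. Its log2 change between ages was 0.37 (SE 0.12, FDR = 0.1), and -0.12 with total counts. Without ISC_22mth pool 1 it was called (0.41, FDR = 0.043). Ugt2b34 took 69.8 and 70.1% of the family CPM in the young and 68.2 and 71.6% in the old pools, so its share within the family did not separate the ages.

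The other UGT2 members had lower levels and did not pass. Ugt2b35 had 25.4 and 25.2 CPM in young and 27.7 and 30.1 CPM in old ISCs (log2 fold change 0.19, SE 0.15, FDR = 0.55), and -0.30 with total counts. Ugt2b36 had 4 and 27 counts in the young and 36 and 30 in the old pools, so that its log2 fold change of 1.31 (SE 0.61, FDR = 0.28) rests largely on ISC_2mth pool 1. Without ISC_2mth pool 2 it was 3.18 (FDR = 0.025), and without ISC_2mth pool 1 it was 0.53 (FDR = 0.85). Ugt2b5 had 10, 23, 35 and 21 counts, or 0.69 and 1.52 CPM in young and 2.65 and 1.72 CPM in old ISCs (0.97, FDR = 0.39), and 41.7% of its 50-nt stretches occur in other genes.

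The UGT1A enzymes, which include the bilirubin-conjugating Ugt1a1, are made from a single locus at chr1:88055388-88220002. Each of the 9 genes has a first exon of its own that is joined to the same last exons, and their coding sequences (1587 to 1608 bases) end in 740 identical bases. The first 60 coding bases of the 3 most abundant members and the first 60 bases of the stretch common to all 9 are shown, 5′ to 3′ and on the plus strand (GENCODE vM21, GRCm38), as reads of the latter cannot be assigned to 1 gene.
Ugt1a6a start: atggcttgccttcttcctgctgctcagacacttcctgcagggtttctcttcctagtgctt
Ugt1a7c start: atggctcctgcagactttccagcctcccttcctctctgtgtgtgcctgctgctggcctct
Ugt1a5 start: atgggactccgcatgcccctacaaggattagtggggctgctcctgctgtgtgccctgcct
common stretch: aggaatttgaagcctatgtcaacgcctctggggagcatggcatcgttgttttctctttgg
Ugt1a6b begins with the same 60 bases as Ugt1a6a and differs from it at 26 of 1596 coding bases (98.4% identity), whereas Ugt1a7c is identical to Ugt1a6a at 64% of positions. The sources used here do not state how reads in shared exons were assigned, and the counts of these genes are uncertain.

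Within these limits, UGT1A expression was low and 0 of 5 tested members were called (1 had an unadjusted p under 0.05). Ugt1a6a, which conjugates small planar phenols, had 54 and 77 counts in the young and 94 and 75 in the old pools, or 3.73, 5.1, 7.11 and 6.14 CPM. It was the only member of the locus whose ages did not overlap (log2 fold change 0.59, SE 0.27, FDR = 0.29). Ugt1a7c had 6 and 3.84 CPM in young and 6.05 and 5.9 CPM in old ISCs (0.28, FDR = 0.66), and Ugt1a5 had 4 and 3.11 CPM in young and 4.31 and 2.87 CPM in old ISCs (0.02, FDR = 0.99). Ugt1a2 and Ugt1a1 had at most 24 counts in any pool. Ugt1a6b, removed by the filter, had between 4 and 9 counts.

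**Figure D4:**
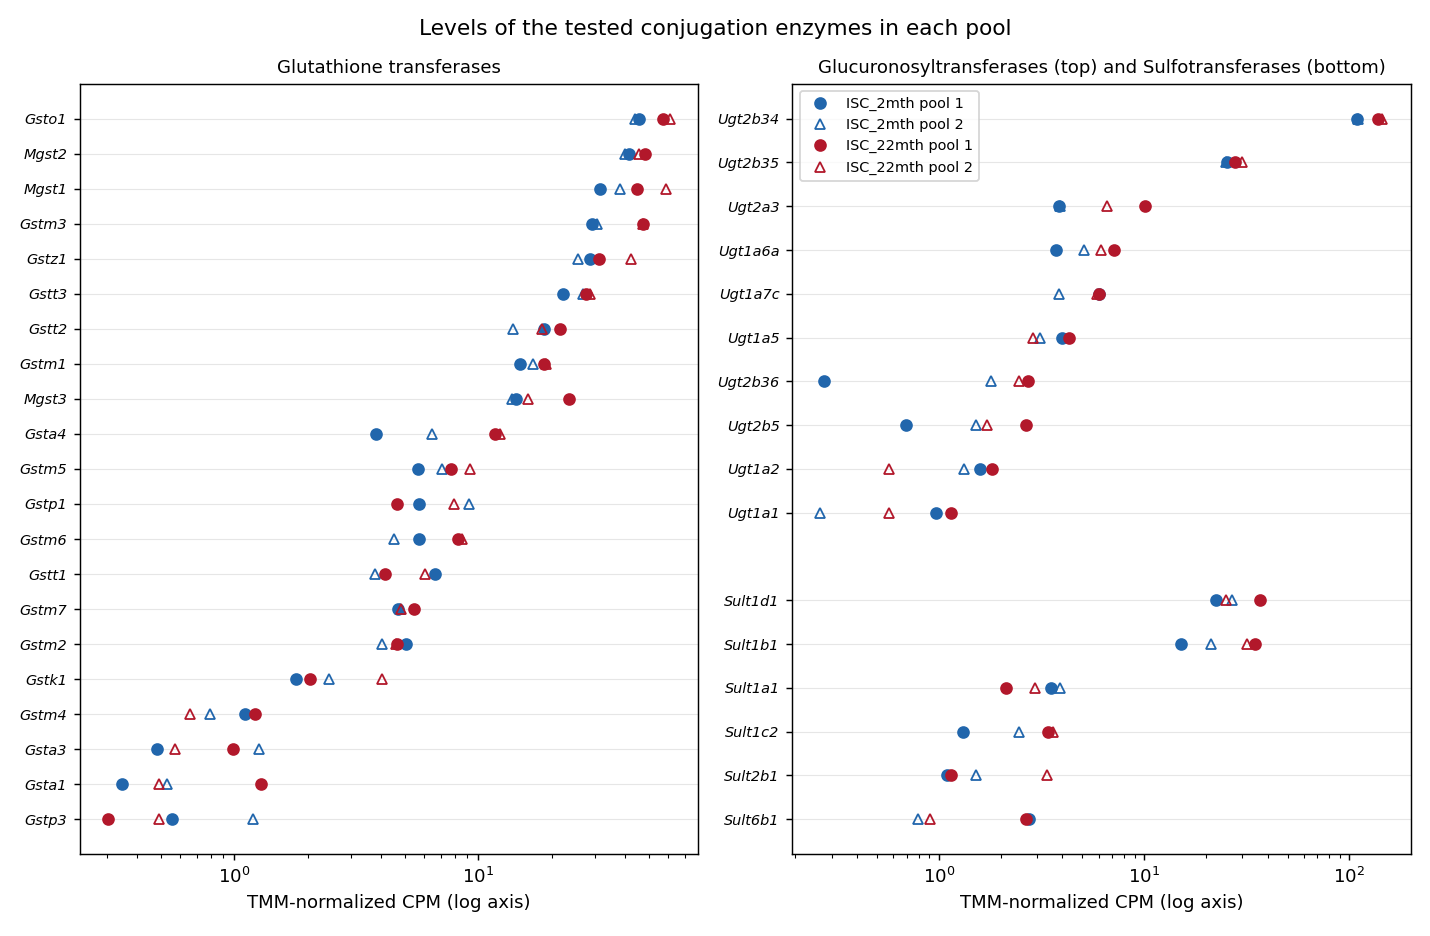
TMM-normalized CPM (log axis) of the 37 tested conjugation enzymes in each of the 4 pools, ordered by mean level within a family. Ugt2b34 lies at 109 to 145 CPM, far above the other glucuronosyltransferases; the red points of Gsta4, Gstm3, Ugt2a3 and Sult1b1 lie right of the blue points, and the members under about 1 CPM scatter between pools of the same age.

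The sulfotransferases had 6 of 21 members tested, with 1 higher (16.7%) and 0 lower. Their median log2 fold change was 0.54 after TMM normalization and 0.06 with total counts, 0.56 above all genes on that scale. Both old pools were above both young pools in 2 of the 6 (33.3%) and below them in 1, near the 24% and 23.6% of all genes tested, while 1.63% of all genes were called higher. With 6 members, these counts are not a result about the family.

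Sult1b1, which sulfates phenols and thyroid hormones and is a characteristic intestinal form, lies at chr5:87513339-87538195 on the minus strand, and no 50-nt stretch of it occurs in other genes. It had 221 and 322 counts in the young and 458 and 389 in the old pools, or 15.2, 21.3, 34.7 and 31.9 CPM. Both old pools were well above both young pools, of which pool 1 was the lower. Sult1b1 rose from 18.3 ± 4.31 to 33.3 ± 1.98 CPM (mean ± SD, n = 2), a log2 change of 0.86 (SE 0.17, FDR = 0.011), the lowest FDR of the 37 tested members. It was called in 11 of 12 other fits, the exception being total counts (0.38, FDR = 0.095), and lay just under the threshold with offsets for GC content and exonic length (0.68, FDR = 0.0495). Without ISC_2mth pool 1 it was not called (0.64, FDR = 0.14).

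Sult1d1, an enzyme that sulfates monoamines in the mouse, lies next to Sult1b1. It had 22.5 and 26.7 CPM in the young and 36.7 and 25.1 CPM in the old pools, so that the ages overlapped (log2 fold change 0.33, SE 0.17, FDR = 0.36), and with total counts it was -0.16. Without ISC_22mth pool 2 it was called (0.58, FDR = 0.022). Sult1d1 took 48.3 and 47.1% of the family CPM in the young and 45.1 and 36.6% in the old pools. The share of Sult1b1 was 32.7 and 37.6% in the young and 42.6 and 46.5% in the old pools. In ISC_22mth pool 2 the order of both genes was the reverse of that in the other pools.

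Sult1a1, the phenol sulfotransferase best known from the liver, was the only member with at least 28 counts in every pool in which both old pools lay below both young pools. It had 51 and 59 counts in the young and 28 and 36 in the old pools, or 3.52, 3.91, 2.12 and 2.95 CPM. The log2 fold change of -0.55 did not pass the threshold (SE 0.36, FDR = 0.46). With total counts it was called lower (-1.04, FDR = 0.032). Its share of the family CPM was 7.56 and 6.89% in the young and 2.6 and 4.31% in the old pools.

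The remaining tested sulfotransferases were at low levels. Sult1c2 had 1.31 and 2.45 CPM in the young and 3.41 and 3.6 CPM in the old pools, without overlap (log2 fold change 0.89, SE 0.41, FDR = 0.27). Sult2b1, which sulfates cholesterol, had 1.1 and 1.52 CPM in young and 1.14 and 3.36 CPM in old ISCs (0.76, FDR = 0.52). Sult6b1 differed more between pools of an age (40 and 12 counts in young, 35 and 11 in old ISCs) than between ages. Sult6b2, which did not pass the filter, had 2 and 0 counts in the young and 10 and 8 in the old pools.

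Of the 28 members that the filter removed, 19 had no count in any pool. They were 13 sulfotransferases (Sult1c1, Sult1e1, Sult2a1 to Sult2a8, Sult3a1, Sult3a2 and Sult5a1) and 6 glucuronosyltransferases (Ugt1a8, Ugt1a10, Ugt2a1, Ugt2a2, Ugt2b37 and Ugt2b38), and 0 were glutathione transferases. The whole Sult2a group, which sulfates bile acids and steroid hormones in the liver, thus had no counts in ISCs. A count of 0 allows up to 3 counts, or between 0.198 and 0.245 CPM in these pools, for counting error only. This limit does not hold where reads may be lost to other genes. Such genes are Ugt2a1, Ugt2a2, Ugt1a8 and Ugt1a10, which share 98.8, 94.5, 59.2 and 64.3% of their exons with other genes. Another is Sult2a2, with 62.1% of its 50-nt stretches in other genes. The limit is uncertain too for Ugt2b38, Sult2a5, Sult2a1, Sult2a4 and Ugt2b37, with 37.4, 34.5, 33.2, 25.5 and 18.3% of such stretches in other genes. The other removed members were Gsta2, Gsto2, Gstp2, Gstt4, Ugt1a6b, Ugt1a9, Ugt2b1, Sult4a1 and Sult6b2.

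Levels of different genes can be set side by side only per length. Per kilobase of exon, the order in young ISCs was Ugt2b34 (25.4 CPM per kb), Gstm3 (22.8), Gsto1 (22.1), Mgst1 (17.3), Mgst3 (12.8), Mgst2 (11), Gstm1 (10.7) and Sult1d1 (10). In old ISCs Gstm3 reached 36.1 CPM per kb and Ugt2b34 32.8 CPM per kb, so that their order was exchanged. Gsto1 followed with 29.2, Mgst1 with 25.8 and Mgst3 with 18. Sult1b1 went from 6.58 to 12 CPM per kb, close to the 12.6 CPM per kb of Sult1d1 and of Mgst2 in old ISCs. These differences between genes were not tested.

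The members are clustered in the genome, a feature the naming pattern did not use. Of the 65 genes, 53 lie in 10 groups of neighbours less than 500000 bp apart. A group on chromosome 5 (chr5:86889767-87591594) holds 13 genes, the 10 UGT2 genes and the sulfotransferases Sult1b1, Sult1d1 and Sult1e1. Of its 7 tested members, 2 were higher (Ugt2a3 and Sult1b1), both old pools were above both young pools in 6, beside 1.63% of all genes tested called higher and 24% with the old pools above, and log2 fold changes ran from 0.19 to 1.31 (median 0.86). In the UGT1A group on chromosome 1 the old pools were above the young pools in 1 of 5 tested members, in the theta group on chromosome 10 in 1 of 3, and in the Gstm group on chromosome 3 in 5 of 7. The first 2 of these shares lie near the 24% of all genes. Genes of a group share sequence and neighbours, and are not independent of each other.

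Promoters were searched for letters bound by regulators of these enzymes, as a description. RefSeq windows (GRCm38.p6) of 300 bases, 250 before and 50 after a start site, were found for 58 of the 65 members and 35 of the 37 tested, 70 windows in all, and both strands were read. The antioxidant response element (TGACNNNGC), bound by NRF2 with a small MAF protein, was in 5.71% of these windows, against 12.4% of all 32851 promoters. The core of the xenobiotic response element (GCGTG), bound by the aryl hydrocarbon receptor, was in 20% against 32.4%. The letters GTTAAT, part of the site of the intestinal and hepatic factor HNF1, were in 18.6% against 7.1%, but 7 of these 13 windows belong to members that the filter removed, and 6 of the 35 tested members with a window held the letters. Windows of genes with several starts overlap, and a match is not a binding site.

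Of the 4 called members, Gsta4 had no window in the table, Gstm3 held none of these letters, Sult1b1 held GCGTG and Ugt2a3 held GTTAAT. The 250 bases before the start of Ugt2a3 (chr5:87337196-87337445, minus strand, outside the gene) are shown 5′ to 3′ because they hold GTTAAT 2 times in close succession, in capitals. The match to TGACNNNGC near the start of Mgst1 (chr6:138140461-138140489, plus strand, inside the annotated gene), read on the opposite strand, is shown as it is 1 of 4 among the tested members, with the others in Gsta3, Gstm5 and Gstm7.
Ugt2a3 upstream: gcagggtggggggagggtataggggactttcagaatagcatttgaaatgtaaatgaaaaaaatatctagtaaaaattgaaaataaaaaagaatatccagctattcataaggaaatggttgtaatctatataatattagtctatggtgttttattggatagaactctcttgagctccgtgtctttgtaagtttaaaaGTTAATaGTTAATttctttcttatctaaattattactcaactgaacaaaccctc
Mgst1 window: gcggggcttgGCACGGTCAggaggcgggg
No binding data were analysed here, so these letters are given as positions only.

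The donor molecules were examined with lists of enzymes and transporters that make, move or break them down. For glutathione, 14 of 16 genes were tested, 2 were higher and 0 lower, with a median log2 fold change of 0.23. Of all genes tested, 1.63% were higher and 0.628% lower. At an unadjusted p under 0.05, 5 of the glutathione genes were higher and 0 lower, beside 9.26% and 7.65% of all genes. With lists as small as these and those below, a few calls are not a result about a list. Gclm, the modifier subunit of the enzyme that starts glutathione synthesis, rose from 18.4 and 22.7 CPM in young to 35.3 and 31.4 CPM in old ISCs (0.69, SE 0.16, FDR = 0.023). Gsr, which regenerates reduced glutathione, rose from 53.6 and 58.6 to 81.8 and 85.1 CPM (0.57, SE 0.12, FDR = 0.02). In both genes the old pools lay above the young pools without overlap.

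For activated sulfate, 7 of 8 genes in the table were tested, 1 was higher and 0 lower, beside 1.63% and 0.628% of all genes. At an unadjusted p under 0.05, 2 were higher and 0 lower. The called gene was Papss2, a synthase of the sulfate donor PAPS. It rose from 8.49 and 9.08 CPM in young to 21.1 and 15.8 CPM in old ISCs (log2 fold change 1.07, SE 0.20, FDR = 0.0075). For UDP-glucuronate, 0 of 4 tested genes were called (2 were higher at an unadjusted p under 0.05, and limma voom and DESeq2 called 0). The lowest p belonged to Ugdh, which makes UDP-glucuronate, with 12.8 and 12.6 CPM in young and 21.1 and 17.9 CPM in old ISCs (0.62, SE 0.18, FDR = 0.077).

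Efflux pumps, several of which export conjugates, held 0 called genes of 8 tested (1 higher and 1 lower at an unadjusted p under 0.05), with a median of 0.01. The pump of lowest p was Abcb1a (P-glycoprotein) with 21.7 and 23.4 CPM in young and 34.7 and 30 CPM in old ISCs (log2 fold change 0.52, SE 0.15, FDR = 0.079). Among other conjugating and related enzymes 0 of 9 were called (2 higher at that p), with a median of 0.36, and the lowest p was that of the epoxide hydrolase Ephx2 (0.92, SE 0.27, FDR = 0.079). Of 15 tested regulators of these pathways, 1 was higher and 0 lower, beside 1.63% and 0.628% of all genes. Their median was -0.11, and 1 was higher and 1 lower at that p. The called regulator was Nfe2l2, which encodes NRF2, with 146 and 177 CPM in young and 218 and 246 CPM in old ISCs.

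The counts of called members depended on single pools, as each age had 2. Without ISC_2mth pool 1, 0 of the 37 tested members were called higher and their median log2 change was 0.43. Without ISC_2mth pool 2 the median was 0.37. The number of calls over all genes also changed with the pool left out, so the counts of called members do not describe the members alone. Of the 4 called members, Gsta4, Gstm3 and Sult1b1 were called in each fit that kept ISC_2mth pool 1, and Ugt2a3 only in the fit without ISC_22mth pool 2. In the fits that left out a pool, the log2 fold changes stayed between 0.90 and 1.65 for Gsta4, 0.63 and 0.69 for Gstm3, 0.64 and 1.12 for Sult1b1, and 0.77 and 1.37 for Ugt2a3. In such a fit 1 age has a single pool, which is assumed to vary like the pools of the other age.

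**Figure D5:**
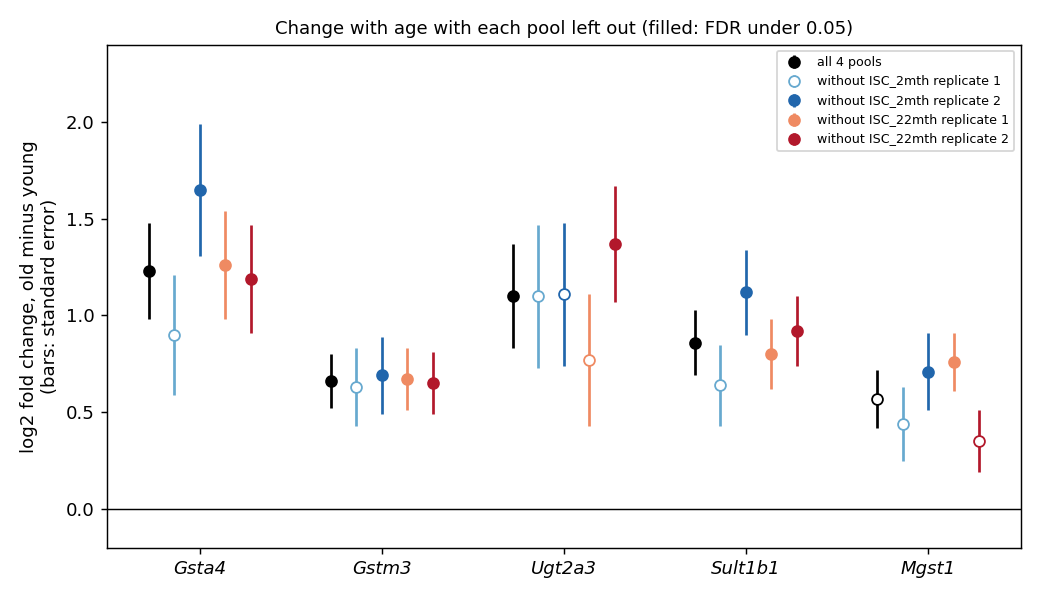
Log2 fold change (old minus young, TMM normalization, bars show the standard error) of the 4 called members and of Mgst1, with all 4 pools and with each pool left out; filled points have FDR under 0.05. All points lie above 0, the points without ISC_2mth replicate 1 are open for every gene, and Gstm3 moves least (0.63 to 0.69).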

How the data were processed

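Counts per gene were deposited by the authors without normalization. Per the labels and the paper, reads were trimmed with Trimmomatic 0.30, aligned to GRCm38 with STAR 2.4.2a and counted in GENCODE vM15 exons with featureCounts. The strand setting and the treatment of reads that fit several genes are not given in the sources used here. Genes that had over 5 reads at over 1 CPM (of the library total, without TMM factors) in some pool entered the tests (13692 of 52459), following the study, and ages were compared over all of them with edgeR 4.0.16 (R 4.3.3; TMM, quasi-likelihood test, no covariate, Benjamini-Hochberg adjustment, FDR 0.05). Each pool of 5 animals was counted as a replicate because the paper describes separate pools, and p-values describe the spread between them. Counts of pools of one age were not those of 1 library listed 2 times (chi-square per gene of 10.4 in young and 7.44 in old ISCs). The biological coefficient of variation was 0.139. Standard errors of the edgeR fits were derived as the absolute log2 fold change divided by the square root of the test statistic.

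Alternatives were limma 3.58.1 voom with sample quality weights, edgeR's likelihood ratio test, DESeq2 1.42.0, 4 other normalizations, 3 other filters, the replicate number as a block, offsets for GC content and exonic length (lowess span 0.3), and each pool left out. The fits were tested on simulated data. Positions, exon lengths and coding sequences came from GENCODE vM21 (GRCm38), and promoters from RefSeq. Members and gene lists were chosen with earlier results of these data known. Named by rule were the called members, the 4 highest in CPM and the 3 of lowest p not called in each family, and in each other list the called genes or that of lowest p. Other members named were chosen after their values were seen.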

Additional observations from a re-analysis of the deposited data

How the results depend on the processing

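Total counts shifted the median of all genes by -0.49, and on that scale 1 member was higher and 2 were lower (1 higher and 1 lower glutathione transferase, 0 higher glucuronosyltransferases, 0 higher and 1 lower sulfotransferase). The median log2 fold change was -0.12 for the members, -0.20 for glutathione transferases, -0.08 for glucuronosyltransferases and 0.06 for sulfotransferases, and Gsto1 (-0.09), Mgst2 (-0.29), Sult1d1 (-0.16), Ugt2b34 (-0.12) and Ugt2b35 (-0.30) reversed their sign. The call of the glucuronosyltransferases became 0 with DESeq2, filterByExpr, at least 10 counts in every library, and offsets for GC content and exonic length, and the cause was not tested. The offsets lowered the median of the members and of the glucuronosyltransferases to 0.30 each. The median of the glutathione transferases was 0.26 with the upper quartile and 0.38 with at least 10 counts in every library, which tests fewer genes. In all genes, 309 were called (223 higher and 86 lower), and this was 4650 with total counts (96 higher and 4554 lower), 623 with the replicate block, 611 with the likelihood ratio test, 554 without a filter, 197 with DESeq2, 184 with the offsets, 147 without ISC_2mth pool 1, 647 without ISC_22mth pool 1 and 691 without ISC_22mth pool 2. Leaving out 1 pool gave between 0 and 6 higher members, 0 and 4 higher glutathione transferases, 0 and 1 higher glucuronosyltransferases and 0 and 2 higher sulfotransferases. The medians then lay between 0.25 and 0.43, 0.22 and 0.35, 0.28 and 0.51, and 0.41 and 0.73, in the order members, glutathione transferases, glucuronosyltransferases and sulfotransferases.

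Both ages use the replicate numbers 1 and 2, and deviations of pools with the same number were uncorrelated across all genes (r = -0.00015). A single correlation over all genes cannot show whether such pools share a batch that affects some genes, and this was not tested. With the replicate number as a block, 5 members were higher (3 glutathione transferases, with Mgst1 added) and 0 lower. The depth limits the members under about 1 CPM, such as Gsta1, Gsta3, Gstp3 and Ugt1a1, which passed the filter in 1 pool.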
